A study of Bos taurus with 3 samples.

Results

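The urea transporter SLC14A1 and the aquaporins AQP1, AQP3, AQP5 and AQP7 were followed in the rumen of the newborn calf. These 5 genes were found by symbol among the 27270 genes of the count tables and carry the identifiers ENSBTAG00000019870, ENSBTAG00000000745, ENSBTAG00000008493, ENSBTAG00000026813 and ENSBTAG00000020105. The study profiled single cells of the ventral rumen sac, stripped of its muscle layers, of 3 Holstein calves 1 day after birth, with 1 droplet library per calf. There was a single group, newborn, so every comparison here was made between cell groups of the same calves, and libraries of adult cattle were not analysed here.

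The rumen is lined by a stratified squamous epithelium, in which cells divide in the basal layer and differentiate as they move toward the lumen. Urea made by the liver returns across this epithelium to the rumen, where microbes split it to ammonia, a nitrogen salvage for which the facilitative urea transporter SLC14A1 (UT-B) is best known in ruminants. SLC14A1 is also the Kidd antigen of red blood cells. AQP1 and AQP5 are water channels, the first typical of red blood cells and of many small blood vessels and the second of glands. AQP3 and AQP7 are aquaglyceroporins, which pass glycerol as well as water, and AQP3 is known from basal cells of stratified epithelia and AQP7 from fat cells.

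In the RefSeq annotation of the assembly ARS-UCD2.0, a later build than the ARS-UCD1.2 of the files, SLC14A1 lies next to SLC14A2 on chromosome 24 and AQP3 next to AQP7 on chromosome 8. AQP5 lies between AQP6 and AQP2 on chromosome 5, and AQP1 between GHRHR and MINDY4 on chromosome 4. Coordinates were not carried over between builds.

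The libraries held 7529, 12043 and 11656 barcodes in calves 1, 2 and 3, with 82263092, 89803289 and 106145091 unique molecular identifiers (UMIs, each standing for 1 captured transcript). After the filters 4545, 9642 and 9481 cells were kept, with medians of 10440, 6559 and 7538 UMIs. Between 8 and 24 cell barcodes were shared by the kept cells of any pair of calves. Levels are given as UMIs of a gene per 10000, over the sum of all UMIs that a calf had in the cell group. For shares of cells with a UMI, each cell was first thinned, by random draws, to 2000 UMIs, and cells with fewer (402 epithelial, 81 endothelial, 277 fibroblasts and 64 immune) were left out.

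Cells were sorted into classes by marker genes other than the 5 genes, which gave 20661 epithelial cells, 1195 endothelial cells, 641 fibroblasts and 710 immune cells. The summed levels of markers that had no part in the sorting followed the names. The summed level of 6 epithelial markers such as EPCAM and DSP was 20.7 ± 2.92 per 10000 (SD, n = 3 calves) in epithelial cells and at most 1.39 in the other classes, with PERP giving 13.6 of it. CDH1 of that list did not follow the names, with 0.570 in the immune cells of calf 3 against 0.428 in its epithelial cells. The summed level of 5 endothelial markers such as KDR was 13.1 ± 1.61 in endothelial cells. Fibroblasts held 29.2 ± 5.19 of 5 collagen and matrix genes, and immune cells 240.9 ± 38.8 of 6 immune markers. Endothelial cells also held 11.1 ± 3.57 of the immune list, with CD74 giving 7.08 and BOLA-DRA 3.95 of it. Those genes gave 106.6 and 116.8 in immune cells. Fibroblasts included contractile cells, with a summed level of DES, MYH11 and CNN1 of 13.3 ± 3.04 per 10000.

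Epithelial cells were divided on the thinned counts by the basal keratin KRT14 and by KRTDAP, a gene of differentiating keratinocytes. KRTDAP-positive cells had at least 2 KRTDAP UMIs (398 cells), KRT14-high cells had at least 4 KRT14 UMIs and none of KRTDAP (4027 cells), and the remaining 15834 cells are called intermediate. A list of 5 basal genes that includes KRT5 and COL17A1 summed to 189 ± 42.7 per 10000 in KRT14-high, 178 ± 12.9 in intermediate and 49.1 ± 7.08 in KRTDAP-positive cells. A list of 5 spinous genes that includes KRT4 and SBSN summed to 11.2 ± 4.32, 12.8 ± 7.17 and 296 ± 76.4. Intermediate cells thus stood close to KRT14-high cells on both sums, but not in each gene. In every calf, KRT5 was lower and KRT15 higher in intermediate than in KRT14-high cells. The word intermediate describes their place in the rule, not a layer of the tissue.

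The calves were unequal in these groups. KRTDAP-positive cells numbered 153 in calf 1, 235 in calf 2 and 10 in calf 3. Immune cells numbered 9, 59 and 642 and fibroblasts 16, 272 and 353, so that calf 3 gave nearly all immune cells and calf 1 hardly any cells outside the epithelium. Comparisons were tested with edgeR's quasi-likelihood test on UMIs summed per calf and group, with the calf as a block and Benjamini-Hochberg adjustment over all genes tested (11657 for the epithelial groups and 11412 for classes). The immune cells of calf 1 were left out of the tests as fewer than 10. AQP1 did not pass the filter on low counts for the epithelial groups and AQP7 for neither fit.

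**Figure D1:**
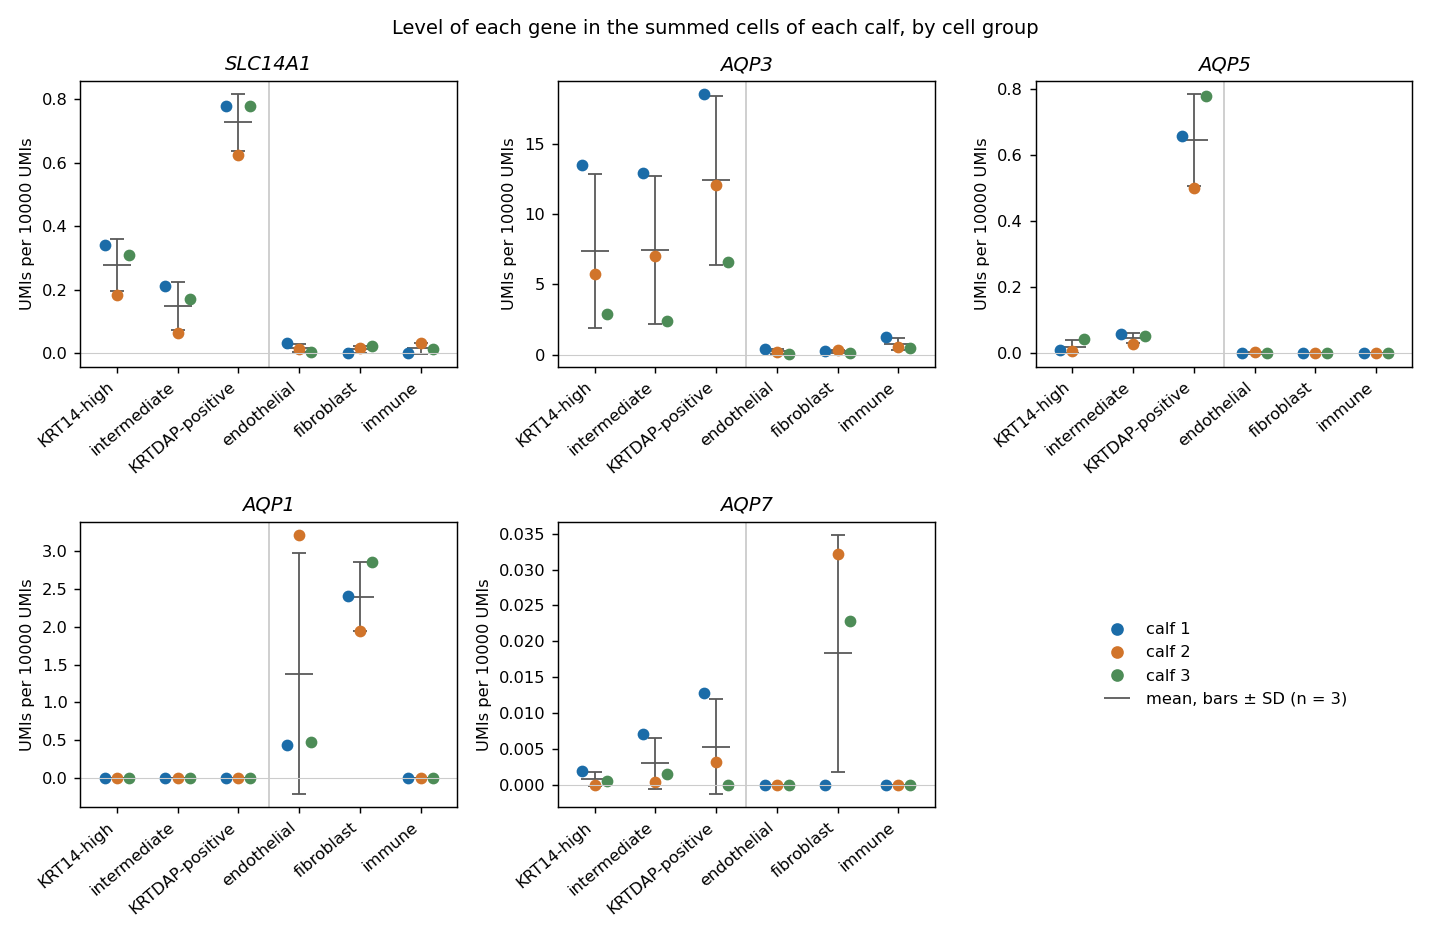
Level of each gene in UMIs per 10000 UMIs (vertical axis, linear, its range differing between panels) in 3 epithelial groups (left of the grey line) and 3 other classes (right). Points are calves and bars the mean ± SD (n = 3 calves). Of the groups drawn, SLC14A1, AQP3 and AQP5 were highest in KRTDAP-positive cells, and AQP1 was found outside the epithelium.

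AQP3 was an epithelial gene in all calves. Epithelial cells held 98.1% of its 133055 UMIs in kept cells. The epithelial level was 13.3 per 10000 in calf 1, 6.95 in calf 2 and 2.55 in calf 3. The calves did not come close to each other, and the ratio of the highest to the lowest was 5.23. In endothelial cells the levels were 0.378, 0.212 and 0.0723, and in fibroblasts 0.267, 0.321 and 0.0800. In every calf both classes were far below the epithelial level. The log2 difference from epithelial cells was -5.55 for endothelial cells (SE 0.311, adjusted p = 1.56e-12) and -5.22 for fibroblasts (SE 0.349, adjusted p = 4.71e-11), lower in 3 of 3 calves in both. Of all genes tested, 24.6% were lower in endothelial than in epithelial cells and 18.7% were lower in fibroblasts. Between endothelial cells and fibroblasts the log2 difference of AQP3 was -0.33 (95% interval -1.19 to 0.53, adjusted p = 0.651).

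Within the epithelium, AQP3 stood at 13.5, 5.72 and 2.88 per 10000 in the KRT14-high cells of calves 1, 2 and 3, at 12.9, 6.98 and 2.42 in intermediate cells and at 18.5, 12.1 and 6.55 in KRTDAP-positive cells. The KRTDAP-positive level was the highest in each calf, while the values of the 3 groups overlapped across calves. The log2 difference between KRTDAP-positive and KRT14-high cells was 0.98 (SE 0.179, adjusted p = 0.000955), and that between KRTDAP-positive and intermediate cells was 0.96 (SE 0.178, adjusted p = 0.000838). The same direction was seen in 3 of 3 calves. Of all genes tested, 14.6% were higher in KRTDAP-positive than in KRT14-high cells and 17.9% were higher than in intermediate cells. Both differences rested on comparing groups within a calf, since without the calf as a block the values were 0.91 and 0.87 with adjusted p of 0.448 and 0.430. KRT14-high and intermediate cells differed by -0.02 (95% interval -0.38 to 0.35, adjusted p = 0.968), with calf 2 on one side and calves 1 and 3 on the other.

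Most epithelial cells had an AQP3 UMI, except in calf 3 after thinning. After thinning the share was 85.2% in calf 1, 64.1% in calf 2 and 32.2% in calf 3, and it reached 94.1%, 78.3% and 70.0% of KRTDAP-positive cells, the last of only 10 cells with an exact 95% interval (Clopper-Pearson, counting error only) from 34.8% to 93.3%. Without thinning, 83.1% of epithelial cells had a UMI. In fibroblasts the thinned share was 3.02%, at a median depth before thinning of 2156 UMIs against 7809 in epithelial cells.

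SLC14A1 was likewise held by the epithelium, with 96.0% of its 3709 UMIs in epithelial cells. Its epithelial level was 0.266 per 10000 in calf 1, 0.119 in calf 2 and 0.209 in calf 3. Outside the epithelium it was near absent, with 6 UMIs each in all endothelial and all immune cells and 3 in fibroblasts. The log2 difference from epithelial cells was -4.47 for endothelial cells (SE 0.464, adjusted p = 3.81e-08) and -3.77 for immune cells (SE 0.558, adjusted p = 7.99e-06). For fibroblasts the ratio of the pooled epithelial level to theirs was 9.81 (95% counting interval 3.36 to 47.6), with an adjusted p of 5.65e-05. The immune difference lost its call without calf 3, which held 5 of the 6 immune UMIs (-2.38, adjusted p = 0.180). Of all genes tested, 26.6% were lower in immune than in epithelial cells. The red blood cell list, with 8 of its 9 genes in the tables, summed to 0.00945, 0.0382 and 0.0272 per 10000 in the epithelium of calves 1, 2 and 3, mostly HBA and AHSP. Its part in the SLC14A1 level was not tested.

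Of the 3 epithelial groups, KRTDAP-positive cells had the highest SLC14A1 level, at 0.777, 0.624 and 0.780 per 10000 in calves 1, 2 and 3. KRT14-high cells held 0.341, 0.185 and 0.309 and intermediate cells 0.211, 0.0654 and 0.173. KRTDAP-positive cells of every calf stood above both other groups of every calf. The log2 difference was 1.66 from KRT14-high cells (SE 0.229, adjusted p = 9.82e-05) and 2.60 from intermediate cells (SE 0.231, adjusted p = 1.47e-06). KRT14-high cells were in turn above intermediate cells in 3 of 3 calves, by 0.94 (SE 0.189, adjusted p = 0.0102), where 5.13% of all genes tested were higher. That last difference lost its call without calf 3 (1.03, adjusted p = 0.186) and without the block (0.88, adjusted p = 1.00), while the difference between KRTDAP-positive and KRT14-high cells passed the test with any 1 calf left out.

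In calf 3 the KRTDAP-positive level came from 10 UMIs in 10 cells, of which 1 cell held 4. In calf 2 a single cell held 37 of 195 UMIs. With the top cell left out of each calf, the levels were 0.745, 0.509 and 0.544 per 10000. These were still above the KRT14-high levels of the same calves.

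Epithelial cells were also binned by their thinned UMIs of KRT14 and KRTDAP. Among cells without KRTDAP, its mean level was 0.139 ± 0.0723 per 10000 (SD, n = 3 calves) in cells with no KRT14 UMI and 0.337 ± 0.0874 in cells with 8 or more. With 1 KRTDAP UMI it was 0.424 ± 0.138, and with 2 to 9 it was 0.858 ± 0.218 (12 and 8 cells in calf 3). In cells with 10 or more KRTDAP UMIs, calf 1 fell back to 0.316 from 1.02, calf 2 held 0.639 after 0.612, and calf 3 had 2 such cells with no UMI. In each calf the level with 2 to 9 KRTDAP UMIs was above that of every bin without KRTDAP, while with 10 or more calf 1 stood below its own cells with 8 or more KRT14 UMIs (0.409).

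**Figure D2:**
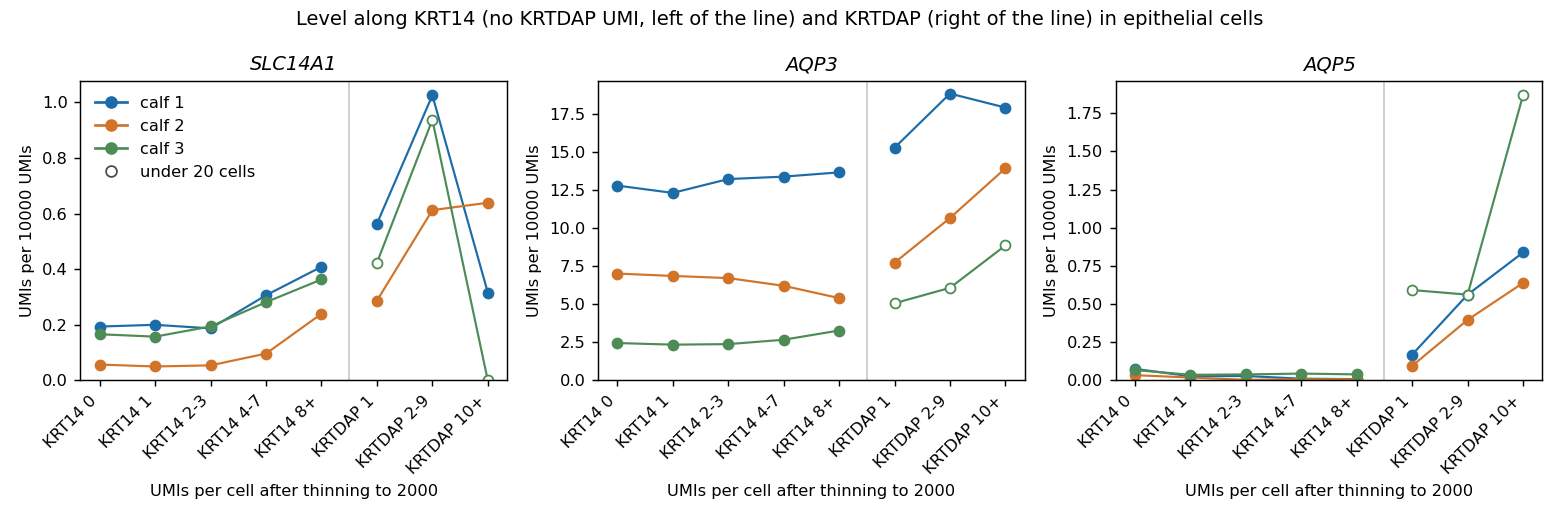
Level in UMIs per 10000 UMIs (vertical axis, linear) of SLC14A1, AQP3 and AQP5 in epithelial cells binned by thinned UMIs of KRT14, in cells without a KRTDAP UMI (left of the grey line), and of KRTDAP (right of it). Lines are calves and open points are bins of under 20 cells. The mean AQP3 level lay between 7.19 and 7.46 along KRT14. From no KRT14 UMI to 8 or more, calf 1 rose from 12.8 to 13.7 and calf 3 from 2.46 to 3.28. Calf 2 fell from 7.03 to 5.415. At 10 or more KRTDAP UMIs, AQP3 stood at 17.9, 13.95 and 8.87 in calves 1, 2 and 3. The mean AQP5 level was at most 0.0594 without KRTDAP, against 0.838, 0.639 and 1.87 in the last bin of calves 1, 2 and 3.

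Few cells had an SLC14A1 UMI at this depth. After thinning the share was 17.6%, 9.79% and 20.0% of KRTDAP-positive cells in calves 1, 2 and 3, against 4.20%, 3.08% and 5.27% of KRT14-high and 3.29%, 1.14% and 2.77% of intermediate cells. Without thinning, 36.9% of KRTDAP-positive, 16.4% of KRT14-high and 8.15% of intermediate cells had one. Endothelial cells, at a median of 4091 UMIs, gave a thinned share of 0.0898%.

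AQP5 was also an epithelial gene, and its level was highest in KRTDAP-positive cells among the 3 epithelial groups. Epithelial cells held 93.0% of its 1122 UMIs, at 0.0756, 0.0466 and 0.0515 per 10000 in calves 1, 2 and 3. KRTDAP-positive cells held 0.658, 0.502 and 0.780, intermediate cells 0.0573, 0.0295 and 0.0528 and KRT14-high cells 0.0104, 0.00747 and 0.0431. The KRTDAP-positive levels did not overlap those of the other groups. The log2 difference from KRT14-high cells was 5.25 (SE 0.337, adjusted p = 9.41e-08) and from intermediate cells 4.05 (SE 0.283, adjusted p = 1.75e-07). Calf 3, with 10 UMIs in its 10 KRTDAP-positive cells, showed the smallest ratio to KRT14-high cells, 18.1 (95% counting interval 8.35 to 35.2), against 63.4 in calf 1 and 67.3 in calf 2.

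KRT14-high cells were below intermediate cells in AQP5, the opposite order to SLC14A1, with a log2 difference of -1.20 (SE 0.310, adjusted p = 0.0298). The levels were lower in 3 of 3 calves, where 4.10% of all genes tested were lower. The call was lost without calf 3 (-2.24, adjusted p = 0.0649) and without the block (-1.21, adjusted p = 1.00). Among cells without KRTDAP, the mean AQP5 level was 0.0594 ± 0.0218 with no KRT14 UMI and 0.0185 ± 0.0182 with 8 or more. With 1 KRTDAP UMI the level was 0.169 in calf 1 and 0.0956 in calf 2, with 2 to 9 it was 0.562 and 0.397, and with 10 or more it was 0.838 and 0.639. The bins of calf 3 held 12, 8 and 2 cells, at 0.592, 0.562 and 1.87. In calves 1 and 2, AQP5 was thus higher in the last bin than in the one before it, where SLC14A1 of calf 1 was lower.

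Outside the epithelium AQP5 gave 1 UMI in 1195 endothelial cells and none in fibroblasts or immune cells. The ratio of the pooled epithelial to the endothelial level was 33.2 (95% counting interval 5.94 to 1311), with an edgeR adjusted p of 4.66e-05. Within calf 2, which gave the 1 UMI, the ratio was 10.6 (1.88 to 419). Against a floor of 3 UMIs over all cells of the class, the pooled epithelial level was at least 2.88-fold higher than in fibroblasts and at least 6.88-fold higher than in immune cells (edgeR adjusted p = 0.00351 and 0.000459), and DESeq2 called neither (adjusted p = 0.0974 and 0.0686). After thinning, 11.1%, 7.66% and 30.0% of KRTDAP-positive cells of calves 1, 2 and 3 had an AQP5 UMI, against 0 of 364 fibroblasts, which allows a share of up to 0.824%. The unthinned share of KRTDAP-positive cells was 42.2%.

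AQP1 had the opposite distribution, with 63.0% of its 1431 UMIs in endothelial cells, 26.6% in fibroblasts and 3.42% in epithelial cells. Endothelial cells held 0.441, 3.22 and 0.476 per 10000 in calves 1, 2 and 3. Calf 2 was 7.31 times calf 1, which had only 14 endothelial AQP1 UMIs. In fibroblasts the levels were 2.40, 1.94 and 2.86 (from 9, 121 and 250 UMIs), a narrower range. Epithelial cells gave 1, 32 and 16 UMIs. The log2 difference from epithelial cells was 8.43 for endothelial cells (SE 0.547, adjusted p = 1.78e-11) and 9.46 for fibroblasts (SE 0.575, adjusted p = 9.32e-12), higher in 3 of 3 calves. Of all genes tested, 22.5% were higher in endothelial than in epithelial cells and 19.1% were higher in fibroblasts.

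Whether endothelial cells or fibroblasts held more AQP1 depended on the calf. Fibroblasts were higher in calves 1 and 3, and calf 2 was the other way around, with a ratio of endothelial to fibroblast level of 0.183 (95% counting interval 0.0739 to 0.480), 1.66 (1.37 to 2.03) and 0.167 (0.136 to 0.204) in calves 1, 2 and 3. The log2 difference of -1.03 (95% interval -1.99 to -0.08) had an adjusted p of 0.109, where 26.7% of all genes tested were called in either direction. It was -2.27 without calf 2 (adjusted p = 1.90e-06) and 0.18 without calf 3 (adjusted p = 0.843).

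The AQP1 of fibroblasts lay in cells with few contractile markers. Fibroblasts with at most 1 of ACTA2, TAGLN, MYH11 and RGS5 (453 cells) held 2.93, 2.80 and 4.37 per 10000 in calves 1, 2 and 3. The 188 fibroblasts with 2 or more, which are myofibroblasts or mural cells by these markers, held 0.985, 0.441 and 0.335. The former were above the latter in 3 of 3 calves, from 12 and 4 cells in calf 1, and no test was made. Among endothelial cells, those with a UMI of PLVAP, a gene of fenestrated vessels, held 0.351, 3.29 and 0.466, and those without held 1.33, 3.25 and 0.679. The high value of calf 2 was present in both. The 22 endothelial cells with at least 2 of the lymphatic genes PROX1, LYVE1, CCL21 and FLT4 gave 4 AQP1 UMIs.

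**Figure D3:**
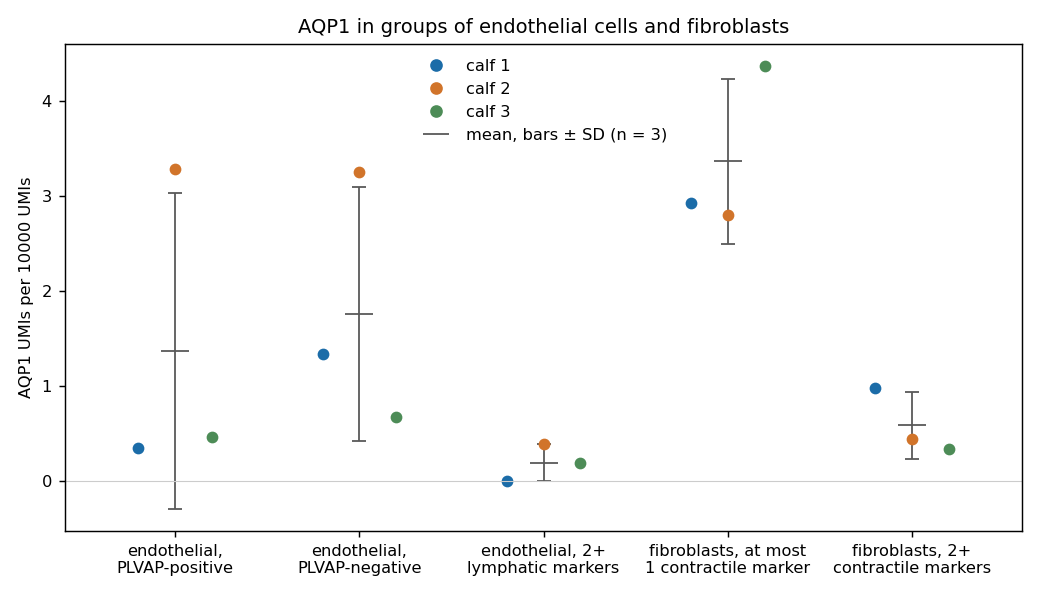
AQP1 level in UMIs per 10000 UMIs (vertical axis, linear) in smaller groups of endothelial cells and fibroblasts. Points are calves and bars the mean ± SD (n = 3 calves). Contractile markers are ACTA2, TAGLN, MYH11 and RGS5. Calf 2 stood apart in blood endothelial cells, and fibroblasts with few contractile markers were higher than those with more in each calf.

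After thinning, 9.38%, 26.1% and 6.19% of endothelial cells of calves 1, 2 and 3 had an AQP1 UMI, and 27.3%, 10.1% and 15.8% of fibroblasts. Without thinning the pooled shares were 23.0% and 20.9%. Thinned epithelial cells gave 0.0543%. The red blood cell list summed to at most 0.00882 per 10000 in endothelial cells and all of its 8 measured genes were at 0 in fibroblasts. Immune cells held 1.28 ± 1.06 per 10000 of that list, mostly HBG, and gave 1 AQP1 UMI in 710 cells. The ratio of the pooled endothelial level to the immune level was 561 (95% counting interval 100.5 to 22190). That of fibroblasts was 909 (162 to 35990), and edgeR gave adjusted p of 7.89e-07 and 8.48e-08. Pooling mixed the calves, since calf 2 held 730 of the 902 endothelial UMIs and calf 3 the 1 immune UMI. Within calf 3 the ratios were 158 (27.95 to 6280) and 947.5 (168.5 to 37570). Against a floor of 3 immune UMIs they were at least 32.8 and 19.8 in calf 2. For calf 1, with 9 immune cells, these floors were 0.724 and 3.95. Of all genes tested, 18.1% were lower in immune than in endothelial cells and 20.3% were lower than in fibroblasts. The difference in AQP1 between immune and epithelial cells was -0.02 on the log2 scale (95% interval -4.12 to 4.08), from the same 1 immune UMI.

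AQP7 was hardly detected, with 49 UMIs in all kept cells. Epithelial cells gave 31 UMIs in calf 1, 3 in calf 2 and 9 in calf 3. Each of these UMIs was in a cell of its own. Fibroblasts gave 4, all in cells with 2 or more contractile markers and 2 of them in 1 cell of calf 2. Per 10000, however, fibroblasts held 0, 0.0321 and 0.0229 in calves 1, 2 and 3 and epithelial cells 0.00623, 0.000445 and 0.00131. The ratio of the pooled fibroblast to the epithelial level was 11.2 (95% counting interval 2.93 to 30.9), from the 4 UMIs. Endothelial and immune cells gave none, which allows a thinned share of up to 0.269% and 0.464% of cells. Fat cell genes were near absent as well, with all 5 of PLIN1, ADIPOQ, LEP, CIDEC and PLIN4 at 0 in fibroblasts and a summed level of 0.00521 ± 0.000440 per 10000 in epithelial cells.

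**Figure D4:**
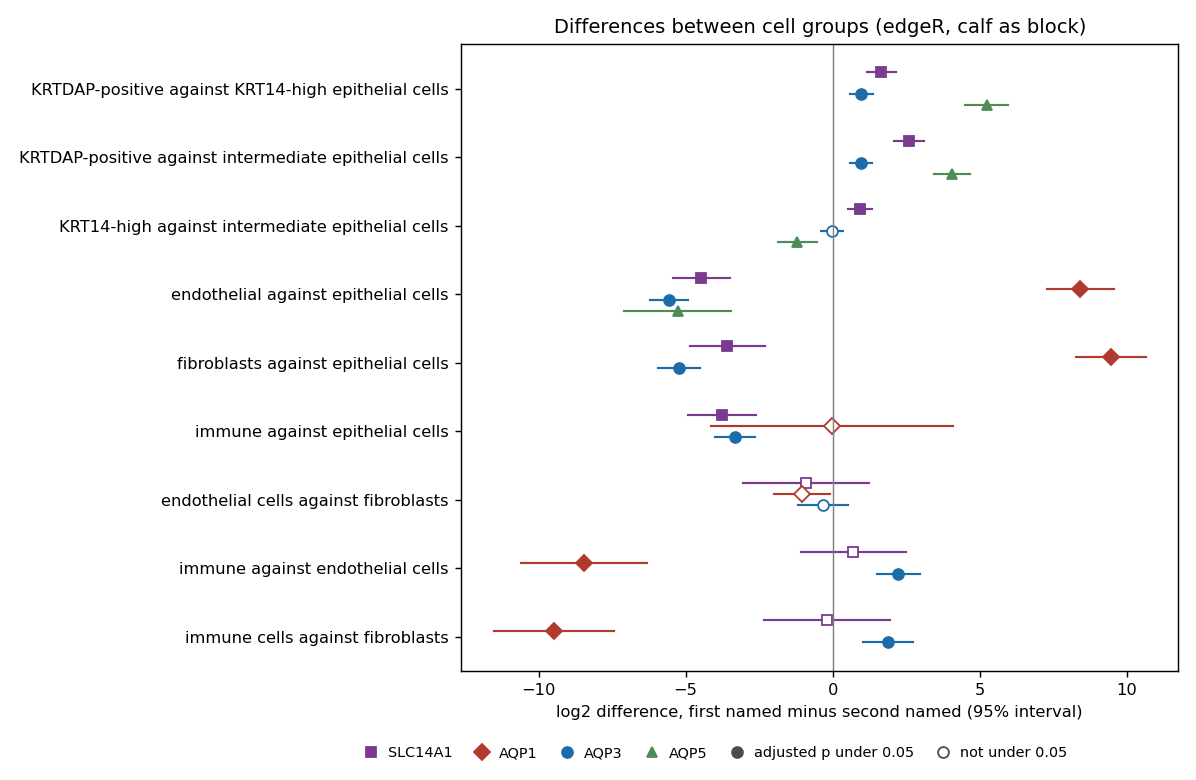
Log2 differences of SLC14A1, AQP1, AQP3 and AQP5 between cell groups (horizontal axis, first named group minus second) from edgeR with the calf as a block, with 95% intervals as lines. Filled symbols have an adjusted p under 0.05. AQP5 in fibroblasts and immune cells against epithelial cells, where those classes had no UMI, is not drawn. AQP1 lies to the right and the other genes to the left for endothelial cells and fibroblasts against epithelial cells.

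AQP3 outside the epithelium was examined further, since free RNA of abundant epithelial transcripts can enter any droplet. Immune cells held 1.22, 0.557 and 0.446 AQP3 UMIs per 10000 in calves 1, 2 and 3 (6, 17 and 148 UMIs). Each was above the endothelial level of the same calf. The log2 difference was 2.23 from endothelial cells (SE 0.352, adjusted p = 2.42e-05) and 1.90 from fibroblasts (SE 0.408, adjusted p = 0.000748), and -3.32 from epithelial cells (SE 0.334, adjusted p = 3.19e-08). Of all genes tested, 16.2% were higher in immune than in endothelial cells and 16.4% were higher than in fibroblasts. Both positive differences lost their call without calf 3 (1.35 and 0.97, adjusted p = 0.130 and 0.353) and without the block (1.45 and 1.37, adjusted p = 0.177 and 0.243). SLC14A1 did not differ detectably between immune and endothelial cells (0.70, 95% interval -1.08 to 2.48) or between immune cells and fibroblasts (-0.19, 95% interval -2.32 to 1.94).

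KRT5, a keratin of stratified epithelia, served as a gauge of epithelial RNA. Epithelial cells held 0.259, 0.145 and 0.0605 AQP3 UMIs per KRT5 UMI in calves 1, 2 and 3. Endothelial cells held 0.164 (95% counting interval 0.0812 to 0.305), 0.108 (0.0782 to 0.145) and 0.0559 (0.0354 to 0.0844). Fibroblasts held 0.0909 (0.00211 to 0.626), 0.118 (0.0701 to 0.188) and 0.0391 (0.0155 to 0.0823). In immune cells the ratio was 0.353 (0.114 to 0.938), 0.270 (0.148 to 0.467) and 0.357 (0.294 to 0.431). The immune interval lay above the ratio of all epithelial cells in calves 2 and 3 and spanned it in calf 1, with 6 AQP3 UMIs. However, KRT5 was uneven over the epithelial groups. KRT5 stood at 9.67, 15.8 and 10.5 per 10000 in KRTDAP-positive cells and at 65.2, 86.9 and 46.9 in KRT14-high cells. KRTDAP-positive cells held 4365, 3784 and 84 AQP3 UMIs beside 2277, 4941 and 135 of KRT5 in calves 1, 2 and 3. The immune ratio of each calf was below that of its KRTDAP-positive cells. The part of free RNA in any of these levels was not tested.

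Among the groups of immune cells, the highest ratio was found in those with a UMI of CD3E, CD3D or CTSW, genes of T cells and other lymphocytes. Of these 249 cells, 227 came from calf 3. They held 1.28 AQP3 UMIs per 10000 in calf 3 and 1.66 in calf 2, and 95 AQP3 UMIs stood beside 121 of KRT5 in calf 3, a ratio of 0.785 (0.594 to 1.04). In calf 2 the ratio was 0.733 (0.305 to 1.71) from 19 cells. Immune cells of calf 3 with 2 or more of CST3, FCER1A, CD1E, C1QA and C1QB, genes of dendritic cells and macrophages, held 0.157 per 10000, with a ratio of 0.141 (0.0942 to 0.205). After thinning, 19.9% (14.4 to 26.4) of the first and 3.65% (1.84 to 6.45) of the second had an AQP3 UMI in calf 3, at median depths before thinning of 2681 and 6710 UMIs. Unthinned shares were 25.6% and 10.2%. Since nearly all of these cells came from 1 calf, no test was made.

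**Figure D5:**
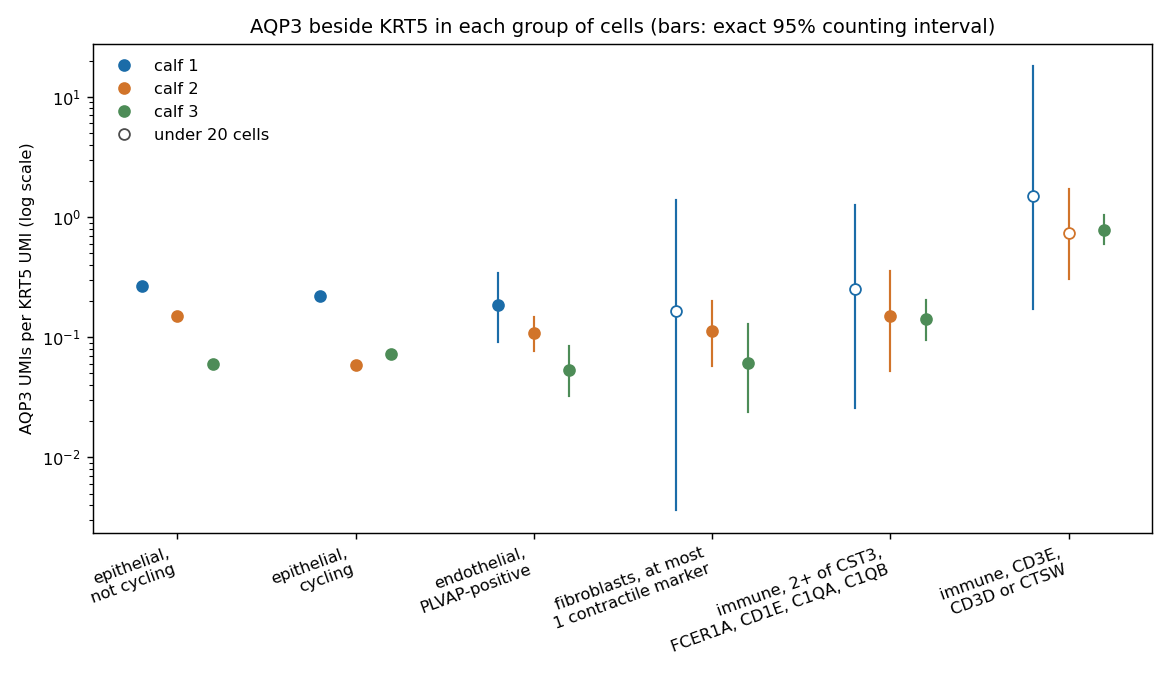
AQP3 UMIs per KRT5 UMI (vertical axis, log scale) in groups of cells, with points for calves and lines for the exact 95% counting interval. Open points are groups of under 20 cells. In calf 3, immune cells with a UMI of CD3E, CD3D or CTSW lay at 0.785 and epithelial cells without cycling markers at 0.0594. Epithelial cells were not divided by KRTDAP here.

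Epithelial AQP3 differed widely between calves. Of the 4516 genes with a UMI in 15% or more of epithelial cells, 37 had a larger ratio of the highest to the lowest calf, and the median log2 range was 0.48 against 2.39 for AQP3. KRT5 had a ratio of 1.22 and KRT14 one of 1.49. SLC14A1 had a ratio of 2.23 and AQP5 one of 1.62. The order of calves 1, 2 and 3 was the same for AQP3 in all epithelial groups. KRT19 moved in the same order in epithelial cells, with 5.51, 0.997 and 0.628 per 10000, and was chosen here as a mesothelial marker with MSLN, UPK3B and WT1. MSLN and UPK3B were at or below 0.0187 in each calf and WT1 at 0. The part of KRT19-positive cells in the range of AQP3 was not tested. With 1 library per calf, animal and library cannot be told apart.

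Cycling epithelial cells, with a UMI of both MKI67 and TOP2A, numbered 691, 174 and 422 in calves 1, 2 and 3. Their SLC14A1 level was 0.437, 0.167 and 0.474 per 10000, against 0.221, 0.118 and 0.184 in other epithelial cells, and was higher in 3 of 3 calves. Their AQP3 level was lower in calves 1 and 2 (11.04 against 13.91, and 4.49 against 7.04) and higher in calf 3 (3.01 against 2.50). Cycling cells were deeper, with medians between 13475.5 and 15516 UMIs against 6717 to 9962, and no test was made.

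The genes whose level was most like that of each member were sought over 17 sums of calf and group, among 12834 genes. The points share libraries and cell classes, so the correlations are descriptions. For SLC14A1 these were ETHE1, a mitochondrial sulfur dioxygenase (Pearson r = 0.978), BDH1, the ketone body enzyme 3-hydroxybutyrate dehydrogenase (0.973), and MAL2 (0.972). ETHE1 stood at 11.8, 10.7 and 13.4 per 10000 in the KRTDAP-positive cells of calves 1, 2 and 3 and at 4.54, 4.39 and 4.42 in KRT14-high cells. For AQP3 they were LY6D (0.977), MAPK13 (0.965) and TRIM29 (0.955). LY6D, a surface protein of keratinocytes, followed the calves too, with 10.6, 3.05 and 1.18 in KRT14-high cells.

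For AQP5 the closest genes were GSTT2 (0.990), SERPINB12 (0.989) and RBP2 (0.988). RBP2, a retinol-binding protein, stood at 2.73, 1.56 and 2.18 per 10000 in KRTDAP-positive cells and at 0.0283, 0.0210 and 0.0164 in KRT14-high cells. For AQP1 they were AOC3 (0.986), PROS1 (0.983) and PLAT (0.977), the last the tissue plasminogen activator. PLAT stood at 0.818, 1.96 and 1.30 per 10000 in endothelial cells and at 4.01, 3.93 and 2.39 in fibroblasts. For AQP7, with its 49 UMIs, they were GARNL3 (0.956), SH3BGR (0.953) and CCDC158 (0.948).

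Other urea transporters and aquaporins were rare. Of 10 listed genes, 8 were in the tables. SLC14A2, the renal urea transporter, and AQP10 had no UMI in kept cells. AQP4 gave 38, 52 and 58 UMIs in the epithelial cells of calves 1, 2 and 3, of which 131 in all were in intermediate cells, 16 in KRT14-high cells and none in KRTDAP-positive cells. It was the only gene of the list that could be tested, and its difference between KRTDAP-positive and KRT14-high cells had an adjusted p of 0.180. AQP9 gave 10 UMIs in the immune cells of calf 3 and 3 in all epithelial cells. AQP11 gave 19 UMIs, MIP 6 and AQP2 5 in epithelial cells, and AQP8 gave 1 in all kept cells.

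Of 12 genes of urea and ammonia metabolism, 7 were tested between KRTDAP-positive and KRT14-high cells, of which 2 were higher and 1 was lower. The median log2 difference of the list was 0.24, against -0.10 for all genes tested, of which 14.6% were higher and 16.3% lower. ARG1, the arginase that splits arginine to urea and ornithine, stood at 3.25, 4.24 and 2.26 per 10000 in the KRTDAP-positive cells of calves 1, 2 and 3 and at 0.00567, 0.0163 and 0.00113 in KRT14-high cells. Its log2 difference was 8.91 (SE 0.337, adjusted p = 9.24e-10). ASL, which forms arginine, was higher by 1.19 (adjusted p = 0.000933), and ASS1, the step before it, was lower by 1.26 on the log2 scale (difference -1.26, adjusted p = 0.00309). RHBG, an ammonia channel, differed by 0.24 (adjusted p = 0.529).

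Of 11 tested genes of the osmotic response, 2 were higher and 2 lower in KRTDAP-positive cells, with a median of 0.14. These counts were near the 14.6% higher and 16.3% lower of all genes tested. The genes called were the heat shock gene HSPA4L (1.88, adjusted p = 5.37e-06) and the chloride transporter CLCN3 (0.90, adjusted p = 0.000169), and the taurine transporter SLC6A6 (-1.53, adjusted p = 0.00110) and the glycine transporter SLC6A9 (-1.03, adjusted p = 0.00264). NFAT5, the main transcription factor of that response, differed by -0.01 (adjusted p = 0.987). Of 9 genes of glycerol handling, 2 were higher, PLD1 (2.37, adjusted p = 4.97e-05) and PNPLA2 (0.62, adjusted p = 0.0394), and LIPE, with 3 UMIs in KRTDAP-positive cells, was lower (adjusted p = 0.0406), with a median of 0.41. GK, the glycerol kinase, differed by 0.32 (adjusted p = 0.355). Of 5 sodium pump genes, the subunit gene ATP1B1 was higher (0.82, adjusted p = 0.0126) and the regulator FXYD5, with 5 UMIs in KRTDAP-positive cells, was lower (-2.04, adjusted p = 0.00825), with a median of 0.21.

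Between endothelial and epithelial cells, 6 of 9 genes of glycerol handling were higher and 1 lower, with a list median of 2.00 against -0.09 for all genes, of which 22.5% were higher and 24.6% lower. The monoglyceride lipase MGLL (5.89, adjusted p = 5.25e-13) and the hormone-sensitive lipase LIPE (4.49, adjusted p = 3.60e-09) were higher, and GK was lower (-2.44, adjusted p = 0.000118). In fibroblasts 3 were higher and 2 lower, with a median of 0.59, where 19.1% of all genes tested were higher and 18.7% lower, so that the counts were near those shares. Of 6 tested genes of urea and ammonia, 3 were higher and 2 lower in endothelial cells, and 1 was higher and 3 lower in fibroblasts, counts too small to set apart from the same shares of all genes. RHBG was lower in fibroblasts, where it gave 1 UMI (adjusted p = 0.000233), and in endothelial cells (-3.70, adjusted p = 3.21e-06), with 7 UMIs. Of 5 sodium pump genes, FXYD5 was higher in both, by 6.10 in endothelial cells (adjusted p = 6.57e-13) and 4.88 in fibroblasts (adjusted p = 1.01e-10).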

How the data were processed

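Raw UMI counts per gene and barcode were deposited by the authors for each calf, as Cell Ranger 3.1.0 gave them on ARS-UCD1.2, without normalization and before quality filters. Barcodes outside 500 to 4000 genes, above 50000 UMIs or above 40% mitochondrial UMIs were dropped. Doublets were scored by their likeness to summed pairs of cells, in place of DoubletFinder, and removed (178, 887 and 854 barcodes). A class needed 3 markers of its own list, fewer than 3 of any other list, and under 30 epithelial marker UMIs per 10000. Epithelial cells needed at least 30 and 2 of 6 markers, which were KRT5, KRT14, KRT15, KRT17, KRT6A and KRTDAP. They also needed fewer than 2 endothelial markers, fewer than 2 immune markers and at most 2 fibroblast markers. The thresholds were set after the markers' distributions were seen. Barcodes of 2 classes (194) or of none (267) were left out.

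Counts were summed per calf and group and fitted with edgeR 4.0.16 (R 4.3.3, TMM scaling, filterByExpr, glmQLFTest, threshold 0.05). Calf was a block, since groups come from the same animals. Libraries of a calf deviated together from group means, with correlations of 0.0915 to 0.873 between epithelial groups and 0.0420 to 0.354 between classes. DESeq2 1.42.0 was an alternative. The tests were checked on simulated data. Intervals of shares and ratios are exact 95% and cover counting error only, and a count of 0 was bounded at 3 UMIs.

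The members and gene lists were chosen with earlier results of these data known. All 5 members are named, as are the 3 genes most like each (log2 of UMIs per 10000 plus 0.1, genes with at least 30 UMIs) and up to 4 genes per list by size of difference, with AQP4, RHBG, NFAT5 and GK added after their values were seen. The 2 comparisons with intermediate cells and the 2 of immune cells with endothelial cells and fibroblasts were added after the levels were seen. The gene counting is at the transcript's 3' end, so levels of different genes were not compared. Replicates are separate animals.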

Additional observations from a re-analysis of the deposited data

Results flagged for a closer look

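Barcodes with more than 4000 genes entered no comparison, and the 5 genes were found in them. There were 1531 of these barcodes that passed the limits on UMIs and mitochondrial UMIs (735, 175 and 621 in calves 1, 2 and 3). Of these, 1393 met the epithelial markers. Doublets were not scored among them, and the paper treated barcodes with this many genes as potential doublets. They had no control sample, and each gene was above the floor that a count of 0 allows. The mean over calves was 0.472 UMIs per 10000 for SLC14A1 (0.503, 0.394 and 0.518), 0.0966 for AQP1 (0.00642, 0.273 and 0.0103), 8.32 for AQP3 (13.5, 7.74 and 3.75), 0.0796 for AQP5 (0.0541, 0.106 and 0.0787) and 0.00268 for AQP7 (17 UMIs in all). SLC14A1 in each calf was above its level in epithelial cells within the limits (0.266, 0.119 and 0.209), and AQP3 kept the order of the calves.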

How the results depend on the processing

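Of 23 member differences past the threshold, 14 kept direction and call under every alternative that could test them. Among the 14, AQP5 in endothelial against epithelial cells had 11 such alternatives and the others 13. Under a mitochondrial limit of 20% and a stricter rule for the epithelial groups, calf 3 had 9 and 4 KRTDAP-positive cells. These were too few to enter, so the KRTDAP-positive calls there rested on calves 1 and 2. With no replicate block, the calls across all genes fell from 3592 to 1253 (KRTDAP-positive against KRT14-high), from 4431 to 1824 (KRTDAP-positive against intermediate) and from 1076 to 0 (KRT14-high against intermediate). The block was also what carried AQP3 in the epithelial groups (0.91 and 0.87 without it, in the order above) and in immune cells against endothelial cells (1.45) and fibroblasts (1.37), and SLC14A1 (0.88) and AQP5 (-1.21) in KRT14-high against intermediate cells. Leaving out the block changed no other call. DESeq2 lost AQP5 in fibroblasts (-3.81) and immune cells (-4.81) against epithelial cells, gave 0.49 for AQP1 in immune against epithelial cells and 0.0305 for SLC14A1 in immune cells against fibroblasts, and called 585 genes between KRT14-high and intermediate cells. There 1766 were called with no filter on low counts, 1658 with a stricter rule for the epithelial groups and 1925 with barcodes over 4000 genes. AQP1 in immune against epithelial cells, from 1 UMI, turned to 0.38 with total counts only, 0.16 with DESeq2 size factors, 0.0296 with no filter, 0.23 with 1 more class marker and 0.34 with barcodes over 4000 genes. AQP3 in KRT14-high against intermediate cells turned to 0.0063 with total counts only and 0.0061 with that stricter rule. AQP1 in endothelial cells against fibroblasts was called with no filter (-1.05, adjusted p = 0.00250). The causes were not tested.

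Leaving out each calf gave 3440 to 4904 calls for endothelial and 2670 to 3997 for fibroblasts against epithelial cells, 2312 to 5369 for immune against epithelial cells, 1820 to 2768 for endothelial cells against fibroblasts, 1788 to 3828 and 1830 to 4078 for immune cells against these, and 0 to 1642 for KRT14-high against intermediate cells. Without calf 3 each was at its lowest, with 1 immune library left, which was assumed to vary like the others. The log2 ranges were -2.27 to 0.18 for AQP1 and -0.47 to 0.21 for AQP3 in endothelial cells against fibroblasts, -5.90 to 0.54 for AQP1 and -4.01 to -2.38 for SLC14A1 in immune against epithelial cells, 0.73 to 1.03 for SLC14A1, -2.24 to -0.89 for AQP5 and -0.13 to 0.12 for AQP3 in KRT14-high against intermediate cells, 1.35 to 2.78 for AQP3 in immune against endothelial cells, and 0.97 to 2.99 for AQP3 and -0.27 to 1.25 for SLC14A1 in immune cells against fibroblasts.

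With total counts in place of TMM, the median difference of all genes moved from -0.09 to 0.36 for endothelial, from -0.09 to 0.40 for fibroblasts and from -0.21 to 0.17 for immune against epithelial cells, and from -0.10 to -0.27 for KRTDAP-positive against KRT14-high cells. The share of higher genes among the calls moved from 47.8% to 69.4%, 50.6% to 74.0%, 44.2% to 60.3% and 47.2% to 31.6%, and from 47.1% to 35.3% for KRTDAP-positive against intermediate cells. Levels stayed within 1 SD in 287 of 295 alternatives and shares in 233 of 280. Thinned shares of single calves rest on few cells outside the epithelium, and the number of calves limits every test.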

Other observations

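Barcodes that met the markers of no class entered no comparison. The 51 of calf 1 held 1.14 SLC14A1 UMIs per 10000 (76 UMIs), 0.673 of AQP5 (45 UMIs) and 16.1 of AQP3, against 0.266, 0.0756 and 13.3 in its epithelial cells. The KRTDAP-positive cells of calf 1 held 0.777, 0.658 and 18.5, so SLC14A1 and AQP5 were higher in the 51 barcodes. The spinous list summed to 158 per 10000 in these 51 barcodes and the basal list to 35.8. The 62 of calf 2 held 0.297 of SLC14A1 and 0.270 of AQP5, and the 154 of calf 3 held 0.249 and 0.169. In calves 2 and 3 both genes were thus below the level of the KRTDAP-positive cells.

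The 194 barcodes with markers of more than one class held 94 AQP1 UMIs, of which 58 were in calf 3 and 36 in calf 2, and 687 of AQP3.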
